A study of Bos taurus with 47 samples.

Results

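Lung RNA of 4 Holstein cattle was compared with RNA of the other 14 tissue labels of a series that used 5 animals. The members were the 4 libraries labelled as lung, 1 from each animal, of 47 libraries in all. LUNG3770 and LUNG3773, titled by animal number, came from 2 males, here male A and male B. LUNG3842 came from a female that also gave the lactating mammary gland, here the lactating cow, and LUNG3886 from a female that also gave the dry mammary gland, here the dry cow. Spleen, liver, kidney, heart, muscle, rumen, ileum, frontal cortex and adipose tissue were taken from the same 4 animals, and ovary and uterus from the 2 females. Each mammary label rested on 1 library, as did the lymphocytes of a further male. No treatment or mutation is named for any group, and ages and diets are not given in the labels used here.

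The lung exchanges gases between air and blood across thin alveolar walls. Type I alveolar cells cover most of that surface, type II alveolar cells secrete surfactant, ciliated and secretory cells line the airways, and macrophages, lymphocytes and a dense capillary bed make up much of the remaining tissue. A lung sample is therefore a mixture of epithelial, vascular, connective and blood-derived cells. In bulk RNA, more cells of a type and more RNA per cell cannot be told apart. The deposited table names its rows by Ensembl identifier only, and none of these was paired with a gene symbol here. The lung label could therefore not be checked against its defining markers, and no function is assigned to any row. Identifiers are called by their rank in the lists described below.

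Levels were deposited as FPKM (fragments per kilobase of transcript, scaled to the fragments of the library), which takes transcript length into account. The depth of the libraries is unknown, since no counts are given. Lung expressed a broad repertoire. In LUNG3770, LUNG3773, LUNG3842 and LUNG3886, 13165, 13096, 12958 and 13193 identifiers reached at least 1 FPKM, which put lung second of the 15 labels after ileum. Their 10 most abundant identifiers took 7.96%, 8.81%, 9.57% and 8.75% of the summed FPKM, whereas this share ran between 6.06% and 75.6% in the other 43 libraries, with a median of 10.4%. The lung libraries resembled each other more than any other label. Spearman correlations across identifiers were 0.961 to 0.984 between lung libraries, and the lung mean correlated with the label means at 0.631 for frontal cortex up to 0.885 for the dry mammary gland. These correlations are across identifiers, which are not independent replicates.

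LUNG3842 stood somewhat apart. Its mean correlation with the other 3 lungs was 0.966, against 0.975 to 0.978 for the others. Traces of RNA from other tissues also differed. Over the 18 identifiers restricted to liver (at least 2000 FPKM there and 100 times any other label), the median level was 346, 86.4 and 96.4 ppm (parts in 1000000) of that in liver in LUNG3770, LUNG3773 and LUNG3886, and 0 in LUNG3842. For the 10 identifiers restricted to rumen, the median was 6.51 ppm in LUNG3842, against 107 to 282 in the other 3 lungs. It was one of 10 libraries of the series with liver or rumen traces under 50 ppm. The others were the lactating cow's adipose tissue, frontal cortex, heart, ileum, kidney, ovary, spleen and uterus, and the lymphocytes of the further male. The low traces thus ran through most libraries of this cow, though not her muscle, liver, rumen or mammary gland. The part of these traces in the results was not tested, and counts without LUNG3842 are given where it moved them.

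Most of the leading identifiers of lung by abundance were also abundant elsewhere. Of the 15 with the highest lung mean, 9 averaged at least 100 FPKM in every label. The first had 9580, 11447, 14878 and 10060 FPKM in LUNG3770, LUNG3773, LUNG3842 and LUNG3886, against a mean of 10666 FPKM in spleen and 503 FPKM in muscle. The lung and spleen values overlapped. The identifier ranked 6 by abundance had 3543 to 4119 FPKM in lung and a mean of 12224 FPKM in uterus. Lung was only the ninth of 15 labels for it.

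A group of 3 abundant identifiers shared a lung and spleen pattern. The identifier ranked 3 had 3557, 5170.5, 7316 and 4032 FPKM in LUNG3770, LUNG3773, LUNG3842 and LUNG3886, against a mean of 8046 FPKM in spleen, 757 FPKM in liver and 19.3 FPKM in frontal cortex. The one ranked 13 had 2075, 3573, 3508 and 2880 FPKM in those lungs, against 4743 FPKM in spleen, 671 FPKM in liver and 10.9 FPKM in muscle. The one ranked 15 had 2035, 3314, 3487 and 2536 FPKM in lung, against 4934 FPKM in spleen and 587 FPKM in liver. In all 3, lung was second to spleen and liver came next. Their label means correlated with each other at 0.922 to 0.992 over the 15 labels, a description of points that share libraries. The 3 were picked out after their values were seen.

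To ask which identifiers set lung apart, the average of the 4 lungs was set against that of the other 14 labels, each label counted equally, on log2(FPKM + 1), which understates changes of low values. An identifier was called at an adjusted p under 0.05 in limma and a difference of at least 4-fold. Of 16634 identifiers tested, 946 were called higher in lung (5.69%) and 28 lower (0.168%). Without a minimum size, 7740 (46.5%) were higher and 3100 (18.6%) lower. The median difference over all identifiers was 0.25 on the log2 scale, so that lung lay slightly above the average of the labels as a whole. Quantile normalization moved this median by -0.42 and gave 628 higher and 66 lower, whereas rescaling all libraries to 1 sum moved it by 0.18. With the animal as a block and the lymphocyte library left out, 928 were higher and 47 lower, and without the block the same libraries gave 959 and 42. Without LUNG3842 the counts were 1006 and 26.

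The higher identifiers carried a sizeable part of the lung transcriptome. The 946 held 22.6% ± 0.654 of the summed FPKM in lung (SD, n = 4). The same 946 held 11.2% in spleen, 11.1% in rumen, 1.22% in muscle and 1.14% in the lactating mammary gland. Their share in lung is raised by the way they were chosen. Of the 84 identifiers with a lung mean of at least 1000 FPKM, 19 were called higher, and of the 948 with at least 100 FPKM, 219 were. In 943 of the 946, lung exceeded the mean of the other 9 tissues in each of the 4 animals, and in 590 by at least 4-fold. The 946 were chosen on these same lungs, so the first count is largely fixed by that choice. The lungs of all 4 animals lay above every one of the 43 other libraries for 258 of the 946. This count is raised by the same choice, and the share over all identifiers tested is not given here.

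The identifier with the largest difference, ENSBTAG00000012560, was close to exclusive to lung. It had 8854, 8731, 9545 and 9834 FPKM in LUNG3770, LUNG3773, LUNG3842 and LUNG3886, against 0.581 to 9.50 FPKM in the other 43 libraries, with a median of 1.42 FPKM. The 4 lungs lay within a narrow range, and its SD among them was 0.0831 on the log2 scale. The next label, frontal cortex, averaged 7.35 FPKM, so that the lung mean was 1258 times higher. The difference from the 14 labels was 11.67 ± 0.20 (SE) on the log2 scale (limma, Benjamini-Hochberg adjusted p = 8.49e-34).

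The second, ENSBTAG00000023032, was shared with liver at a lower level. It had 4125, 3428, 2707 and 4564 FPKM in LUNG3770, LUNG3773, LUNG3842 and LUNG3886, against 168, 167, 271 and 248 FPKM in the livers of the same animals. Every lung exceeded every liver, by 17.4 times on average, and no other label averaged above 1.31 FPKM. The difference was 10.67 ± 0.16 (SE) on the log2 scale (limma, Benjamini-Hochberg adjusted p = 1.12e-35).

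**Figure D1:**
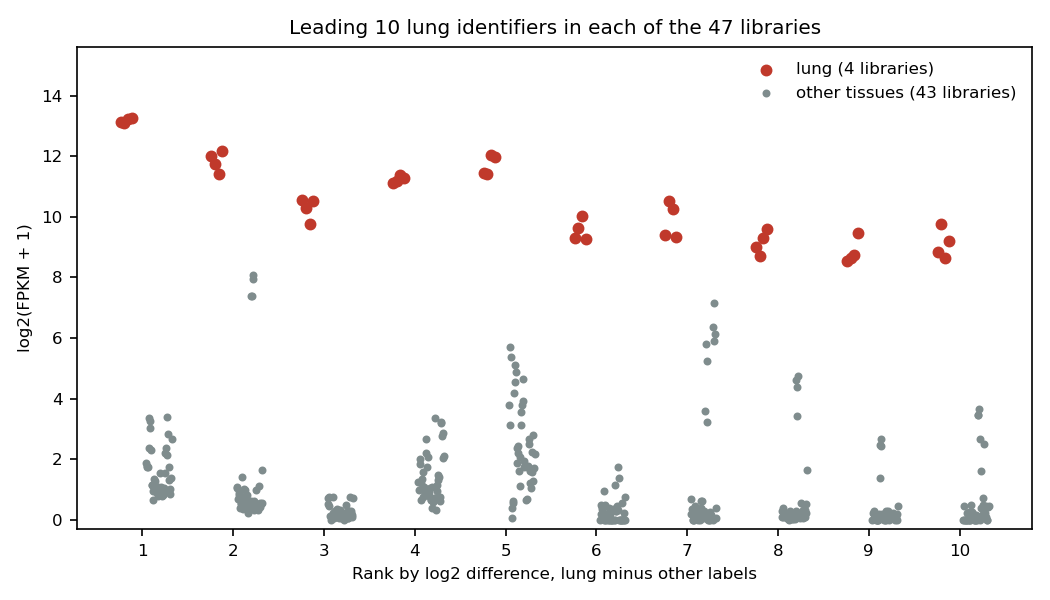
The 10 identifiers with the largest lung difference that did not overlap other tissues, by rank (horizontal axis), with log2(FPKM + 1) on the vertical axis; red points are the 4 lung libraries and grey points the 43 libraries of other tissues. All lung points lie above all grey points, by rule, and the grey points that stand out at rank 2 are the 4 livers, with 167 to 271 FPKM.

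Several of the leading identifiers were almost absent elsewhere. The one ranked 3 had 1508, 1244, 860 and 1479 FPKM in LUNG3770, LUNG3773, LUNG3842 and LUNG3886, against at most 0.680 FPKM in any other library. The one ranked 11 had 323, 262, 215 and 338 FPKM in those lungs, against at most 0.148 FPKM elsewhere. The lung means of these were 2386 and 2402 times the next label's mean. The identifier ranked 6 had 631, 793, 1033 and 620 FPKM in lung, and its next label was the dry mammary gland with 2.36 FPKM. The identifier ranked 21 had a lower level, with 55.1, 41.9, 49.1 and 55.3 FPKM in lung and 0.337 FPKM in frontal cortex, the next label.

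Others had a weak second site. The identifier ranked 4 had 2197, 2294, 2678 and 2474 FPKM in LUNG3770, LUNG3773, LUNG3842 and LUNG3886, and its next labels were lymphocytes with 9.18 FPKM and spleen with 7.17 FPKM. The identifier ranked 5 had 2777, 2693, 4168 and 3998 FPKM in lung, and its next labels were adipose tissue with 28.2 FPKM, heart with 25.5 FPKM and muscle with 15.4 FPKM. The lungs of both females lay above those of both males for it. The identifier ranked 9 had 368, 399, 427 and 698 FPKM in lung and averaged 3.98 FPKM in ileum.

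The next label after lung varied among the 25 leading identifiers. It was liver for 5, spleen, the lactating and the dry mammary gland for 3 each, and frontal cortex, lymphocytes, adipose tissue, kidney and ovary for 2 each. Spleen and liver came together for some. The identifier ranked 7 had 682, 1477, 1221 and 638 FPKM in LUNG3770, LUNG3773, LUNG3842 and LUNG3886, against a mean of 88.1 FPKM in spleen and 27.8 FPKM in liver. The identifier ranked 17 had 89.3, 241, 118 and 148 FPKM in those lungs, against 18.1 FPKM in spleen and 10.5 FPKM in liver. For both, male B gave the highest lung and the highest other library, its spleen, with 141 and 32.5 FPKM. The identifier ranked 24 had 125, 163, 129 and 112 FPKM in lung, against 54.7 FPKM in spleen, 47.0 FPKM in liver and 33.0 FPKM in ileum.

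Kidney, mammary gland or ovary held the next level for others. The identifier ranked 15 had 212, 170, 271 and 182 FPKM in LUNG3770, LUNG3773, LUNG3842 and LUNG3886, against 137 FPKM in kidney and 7.25 FPKM in uterus. Its difference from kidney alone was 0.59 on the log2 scale (limma, Benjamini-Hochberg adjusted p = 0.0214), under the 2-fold minimum. The identifier ranked 16 had 203, 115, 241 and 157 FPKM in lung, against 95.9 FPKM in the lactating and 56.2 FPKM in the dry mammary gland. The identifier ranked 25 had 269, 204, 162 and 206 FPKM in lung, against 62.0 FPKM in ovary and 27.5 FPKM in uterus. Of the 25, 23 were called higher than each of the 14 labels at 2-fold, and the exceptions were those ranked 15 and 16. This is close to fixed by the rule that chose the 25 for large differences without overlap. Of all identifiers tested, 1.29% were called so.

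**Figure D2:**
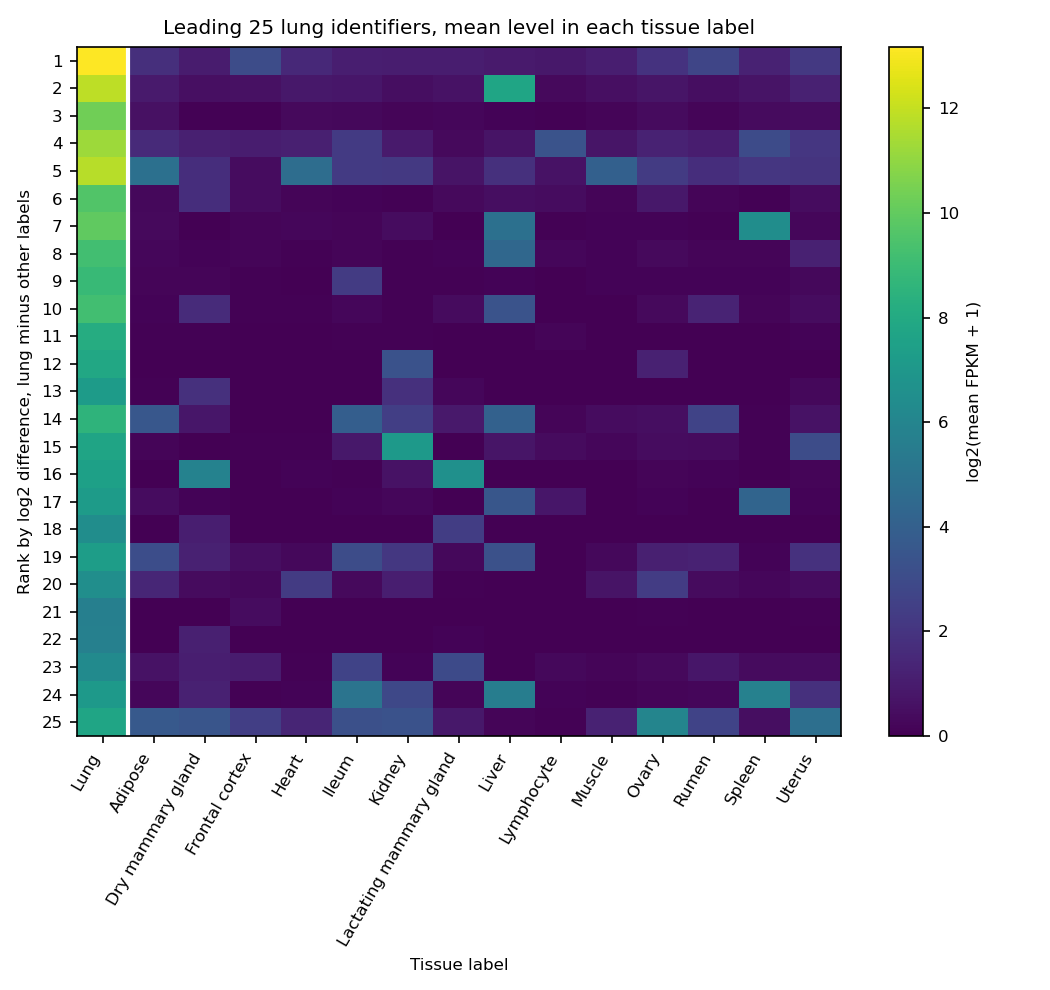
Mean level of the 25 leading identifiers (rows, by rank) in each tissue label (columns, lung first), as log2(mean FPKM + 1) from dark (0) to yellow. The lung column is brightest throughout, and the next brightest cells are liver at rank 2 (213 FPKM), kidney at rank 15 (137 FPKM) and the lactating mammary gland at rank 16 (95.9 FPKM).

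The leading identifiers also varied among the 4 lungs. Their SD on the log2 scale ran from 0.0831 to 1.48, with a median of 0.37. The widest was that of the identifier ranked 14, with 306.5, 63.5, 612 and 514 FPKM in LUNG3770, LUNG3773, LUNG3842 and LUNG3886. The identifier ranked 12 had 100.1, 441, 203 and 223 FPKM in those lungs, against 9.11 FPKM in kidney. The highest library of other tissues had 44.1 FPKM at rank 14 and 12.5 FPKM at rank 12, below every lung by the rule that chose these identifiers.

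Lung was often not the first tissue for these. It ranked first of the 15 labels for 461 of the 946, second for 293, and at rank 3, 4 and 5 for 128, 53 and 11. Spleen was first for 99 of the other 485, lymphocytes for 59, kidney for 45, ileum for 43 and the dry mammary gland for 42. Spleen was within 2-fold of lung or above it for 242 of the 946, ileum for 220 and the dry mammary gland for 194, but muscle for only 16. Muscle lay below 0.25 of the lung level for 907 of the 946, and the lactating mammary gland for 898. These 2 counts are raised by the choice of the 946 at 4-fold above the average of the labels. Shares over all identifiers were not computed for the counts in this paragraph.

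The 3 largest differences among the 485 involved liver, spleen and muscle. These were chosen after their values were seen. The first had 304, 286, 522 and 570 FPKM in LUNG3770, LUNG3773, LUNG3842 and LUNG3886, against 1128 FPKM in liver and no more than 0.930 FPKM in any remaining label. Its difference was 7.65 ± 0.18 (SE) on the log2 scale. The second had 717, 1410, 1178 and 1080 FPKM in those lungs, against 1320 FPKM in spleen and 195 FPKM in liver, with a difference of 7.12 ± 0.36 (SE). The third had 1110, 945, 897 and 756 FPKM in lung, against 1635 FPKM in muscle, 557 FPKM in frontal cortex and 435 FPKM in liver, with a difference of 7.03 ± 0.24 (SE). Pairs of labels were counted over all identifiers, called or not, and not only the 485. Both lung and 1 other label had to reach 1 FPKM and lie at least 4 times above every further label. Spleen was the partner for 19, frontal cortex for 17, liver for 14 and kidney for 11.

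A stricter description takes identifiers whose lung mean reached 1 FPKM and was no less than 4 times that of every other label. This found 112, of which 82 were also called higher than the mean of the labels. Their median lung mean was 9.14 FPKM, and 22 reached 100 FPKM, while 41 stayed under 5 FPKM. The lung mean was at least 10 times the next label's for 36 and at least 100 times for 10, while 2 further identifiers were listed at 0 in all other libraries. The 4 lungs lay above all 43 other libraries for 106 of the 112, a count raised by the way they were chosen. Together they held 4.59% ± 0.382 of the lung FPKM (SD, n = 4) and at most 0.0769% in any other library. The last identifier inside the limit stood at 4.02 times the next label and the first outside at 3.98 times. Adding 1 FPKM to each mean left 55, and a minimum of 0.1 FPKM gave 171.

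Uterus was the next label for 31 of the 112. For 28 of these 31, the uterus of the dry cow had more than that of the lactating cow, with medians of 1.10 and 0.327 FPKM. The median lung mean of these was 4.48 FPKM. Of the 81 others, 56 were also higher in the uterus of the dry cow. This uterus further held the most of 7 identifiers restricted to lung (at least 200 FPKM there and 100 times any other label), at a median of 827 ppm of their lung level, against 31.4 to 529 ppm in the other 42 libraries. The part of these lung traces in the order of the labels was not tested. Without this uterus, 123 identifiers met the limits.

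Set against 1 label at a time, lung was nearest to the dry mammary gland and spleen by the number of identifiers called at an adjusted p under 0.05 and 2-fold. Against the dry mammary gland, 1499 were higher in lung (9.01%) and 1125 lower (6.76%). Against spleen, 2291 were higher (13.8%) and 1267 lower (7.62%). Against adipose tissue, 2575 were higher (15.5%) and 1085 lower (6.52%). After quantile normalization adipose tissue had fewer calls in all (3324) than spleen (3499), so their order depends on the scaling. The numbers also depend on how many libraries a label has, and those with 1 library rest on the spread of the other labels. The percentages are over the same 16634 identifiers.

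Ileum was the one label against which more were lower than higher, with 1808 higher (10.9%) and 1971 lower (11.8%). This turned round with the scaling, to 1971 higher and 1770 lower after quantile normalization and 2088 and 1774 after rescaling to 1 sum. Against uterus, 2681 were higher (16.1%) and 1321 lower (7.94%), and against ovary 2819 were higher (16.9%) and 1490 lower (8.96%). Against kidney the counts were 3160 higher (19%) and 2229 lower (13.4%), and against lymphocytes 3578 higher (21.5%) and 2208 lower (13.3%). Frontal cortex gave the most lower calls, with 3705 higher (22.3%) and 3234 lower (19.4%).

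The most calls were made against rumen, frontal cortex, heart, liver, muscle and the lactating mammary gland. Against rumen, 4464 were higher (26.8%) and 1433 lower (8.61%). Against heart, 6632 were higher (39.9%) and 1484 lower (8.92%), and against liver 7123 were higher (42.8%) and 1188 lower (7.14%). Against muscle, 8145 were higher (49%) and 1037 lower (6.23%). Against the lactating mammary gland, 9563 were higher (57.5%) and only 322 lower (1.94%). These splits depend on the scaling. After quantile normalization the share of calls that were higher was 51.4% against the lactating gland, where it had been 96.7%. It was 51.9% for muscle (88.7% before), 56.0% for liver (85.7% before) and 50.3% for heart (81.7% before). The same scaling gave 52.5% for rumen (75.7% before), 53.2% for adipose tissue (70.4% before), 51.9% for uterus (67.0% before), 50.9% for ovary (65.4% before) and 45.5% for lymphocytes (61.8% before). Rescaling all libraries to 1 sum instead gave 87.1% for rumen, 77.9% for ovary, 77.6% for uterus and 76.1% for spleen (64.4% before).

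**Figure D3:**
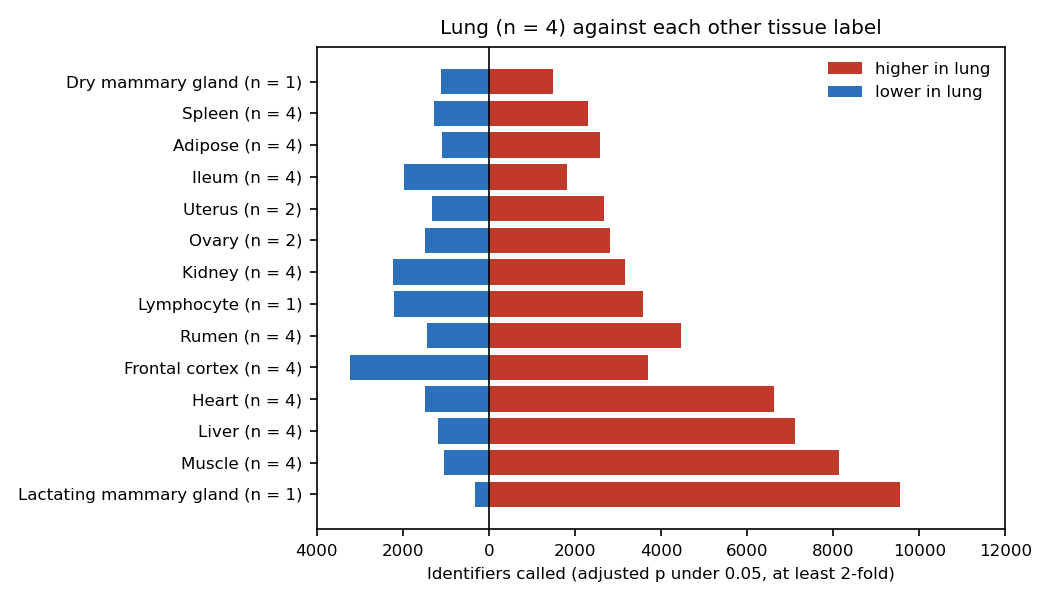
Number of identifiers called higher (red, right of 0) or lower (blue, left of 0) in lung than in each other tissue label, at adjusted p under 0.05 and at least 2-fold; rows run from the fewest to the most calls and n is the number of libraries. Lower calls range from 322 to 3234, and higher calls reach 9563 against the lactating mammary gland.

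Only 215 identifiers (1.29%) were higher in lung than in each of the 14 labels, and 186 of them were among the 946. None (0%) was lower than each of the 14 in limma, and the count stayed 0 at an unadjusted p under 0.05 with the same 2-fold minimum. No other tool was run. Lung differed at this size from none of the labels for 978 identifiers.

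Low identifiers were few and seldom lowest in lung. Of the 28 called lower, lung ranked last of the 15 labels for 2, next to last for 7 and between the ninth and thirteenth for the others. Lymphocytes lay below lung for 21 of the 28, liver for 11 and the lactating mammary gland for 9. The label with the highest level was muscle for 6, and frontal cortex, heart and kidney for 4 each. Lung was below the mean of the other 9 tissues in all 4 animals for all 28, which is largely fixed by the way they were chosen. The lung means ran from 0.151 to 56.5 FPKM, with a median of 0.902 FPKM.

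The largest decrease was that of ENSBTAG00000010907, a muscle identifier. It had 1.42, 0.967, 0.266 and 1.33 FPKM in LUNG3770, LUNG3773, LUNG3842 and LUNG3886, against a mean of 2717 FPKM in muscle, 238 FPKM in kidney and 201 FPKM in frontal cortex. Of the 43 other libraries, 40 lay above the highest lung. It fell by 3.29 ± 0.31 (SE) on the log2 scale (limma, Benjamini-Hochberg adjusted p = 1.44e-11).

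The second, ENSBTAG00000010991, was foremost a liver identifier. It had 7.91, 3.75, 0.394 and 2.33 FPKM in LUNG3770, LUNG3773, LUNG3842 and LUNG3886, against 15645 FPKM in liver and 869 FPKM in the dry mammary gland, and 27 of the 43 other libraries lay above the highest lung. The difference was -3.01 ± 0.55 (SE) on the log2 scale (limma, Benjamini-Hochberg adjusted p = 1.24e-05). The lungs with the highest and the lowest value, LUNG3770 and LUNG3842, were also those with the most and the least liver traces, at 346 and 0 ppm. The part of the traces in these values was not tested.

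The identifier ranked 5 was the only one of the 28 for which lung did not overlap any other library. It had 0.234, 0.101, 0.316 and 0.214 FPKM in LUNG3770, LUNG3773, LUNG3842 and LUNG3886, against at least 0.774 FPKM in the other 43 libraries, with means of 640 FPKM in kidney and 333 FPKM in rumen. The identifier ranked 7 had 0.705, 0.633, 0.837 and 0.945 FPKM in those lungs, against 2809 FPKM in kidney and 1708 FPKM in liver. The identifier ranked 16 had 15.5, 12.1, 19.2 and 10.8 FPKM in lung, against 888 FPKM in heart, and lung again ranked last of the labels, just under lymphocytes with 15.8 FPKM. It and the one ranked 25 below fall outside the 15 largest decreases and were chosen after their values were seen.

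Some of the calls rested on the mammary gland. The identifier ranked 15 had 5.87 FPKM in LUNG3886 and was listed at 0 in LUNG3770, LUNG3773 and LUNG3842, against 61750 FPKM in the lactating and 597 FPKM in the dry mammary gland and a median of 0 over all other libraries. The identifier ranked 25 had the same pattern, with 2.51 FPKM in LUNG3886 and 28404 FPKM in the lactating gland. Without both mammary libraries the differences of these were -0.64 and -0.52 on the log2 scale (limma, Benjamini-Hochberg adjusted p = 0.581 and 0.539), and neither was called. The identifier ranked 14, with 3216 FPKM in the dry mammary gland, had a difference of -1.16 in that fit, under the 4-fold minimum. That fit called 42 lower in all. With the 10 tissues of all 4 animals alone, 120 were lower, so that the count of low identifiers depends on which labels make up the average.

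**Figure D4:**
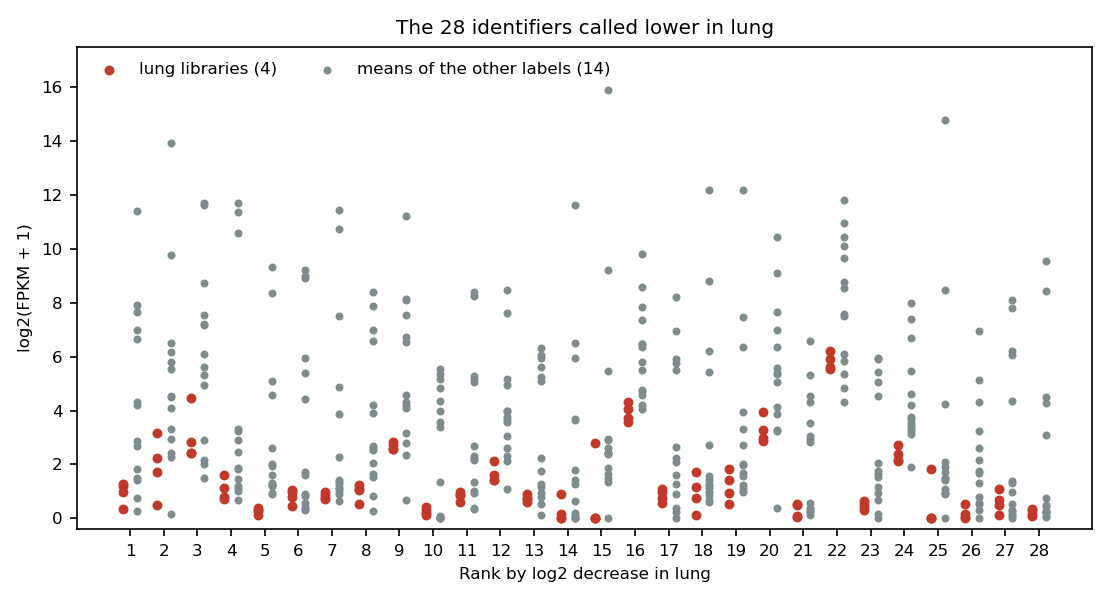
Levels of the 28 identifiers called lower in lung, by rank (horizontal axis), as log2(FPKM + 1); red points are the 4 lung libraries and grey points the means of the other 14 labels. Some label means lie below the lung mean at all ranks but 5 and 16, and at rank 5 all red points lie under all grey ones.

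Among the 4 lungs, the median SD of an identifier was 0.223 on the log2 scale. This was the second largest of the 10 tissues sampled in all 4 animals, after ileum with 0.295, and muscle had the smallest with 0.161. It rested on 1 library. Without LUNG3842 the median SD was 0.148, and leaving out any other lung gave 0.215 to 0.229. With the lactating cow left out of every tissue, lung lay above only frontal cortex (0.147) and muscle (0.129), with adipose tissue (0.212) and ileum (0.208) highest. An SD of at least 1 was found for 140 identifiers, and the most distant lung was LUNG3842 for 66 of these, LUNG3770 for 26, LUNG3886 for 26 and LUNG3773 for 22.

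Part of this variation was shared by the other tissues of the animal. Of 10013 identifiers with a lung mean of at least 5 FPKM, 90 had an SD of at least 1. Each was split at the largest gap between its 4 lung values, and the same animals were apart in all 9 other tissues for 16 of the 90 (17.8%), whereas this held for 0.499% of all 10013. The animals were not apart in this way in any other tissue for 8 of the 90 (8.89%), against 7.07% of all 10013. No test was made of these shares.

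The most variable identifier had 185 and 225 FPKM in LUNG3770 and LUNG3842, and 1.01 and 1.42 FPKM in LUNG3773 and LUNG3886. It ran between 6.68 and 400 FPKM in the other 9 tissues of the first pair of animals and did not exceed 3.42 FPKM in those of the second. The one ranked 2 was listed at 0 in 3 lungs and had 82.7 FPKM in LUNG3886, and the other tissues of the dry cow had 5.18 to 74.5 FPKM while those of the other animals stayed at or under 0.473 FPKM. The one ranked 4 was listed at 0 in LUNG3773 and had 44.3, 34.3 and 23.9 FPKM in LUNG3770, LUNG3842 and LUNG3886. The one ranked 6 was low in LUNG3842 alone, with 0.321 FPKM there and 33.4, 16.2 and 31.9 FPKM in LUNG3770, LUNG3773 and LUNG3886. The groups of animals were the same in all 9 other tissues for these and for the ones ranked 5 and 10. With 1 sample of each tissue from each animal, inherited differences and others that affect a whole animal cannot be told apart.

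For others the same animals were apart in 2 or fewer of the other 9 tissues. The identifier ranked 3 had 1.75, 1.60, 179 and 10.3 FPKM in LUNG3770, LUNG3773, LUNG3842 and LUNG3886, and the 9 other tissues of these animals stayed between 0.087 and 17.2 FPKM. The one ranked 7 had 33.8, 68.1, 916 and 398 FPKM in those lungs. The one ranked 9 had 0.724, 0.518, 17.95 and 15.1 FPKM in lung, and none of their 9 other tissues exceeded 7.79 FPKM. In all 3, both female lungs lay above both male lungs. The identifier ranked 8 had 8.24, 12.04, 5.54 and 136 FPKM in lung, and its highest label was rumen with 886 FPKM.

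**Figure D5:**
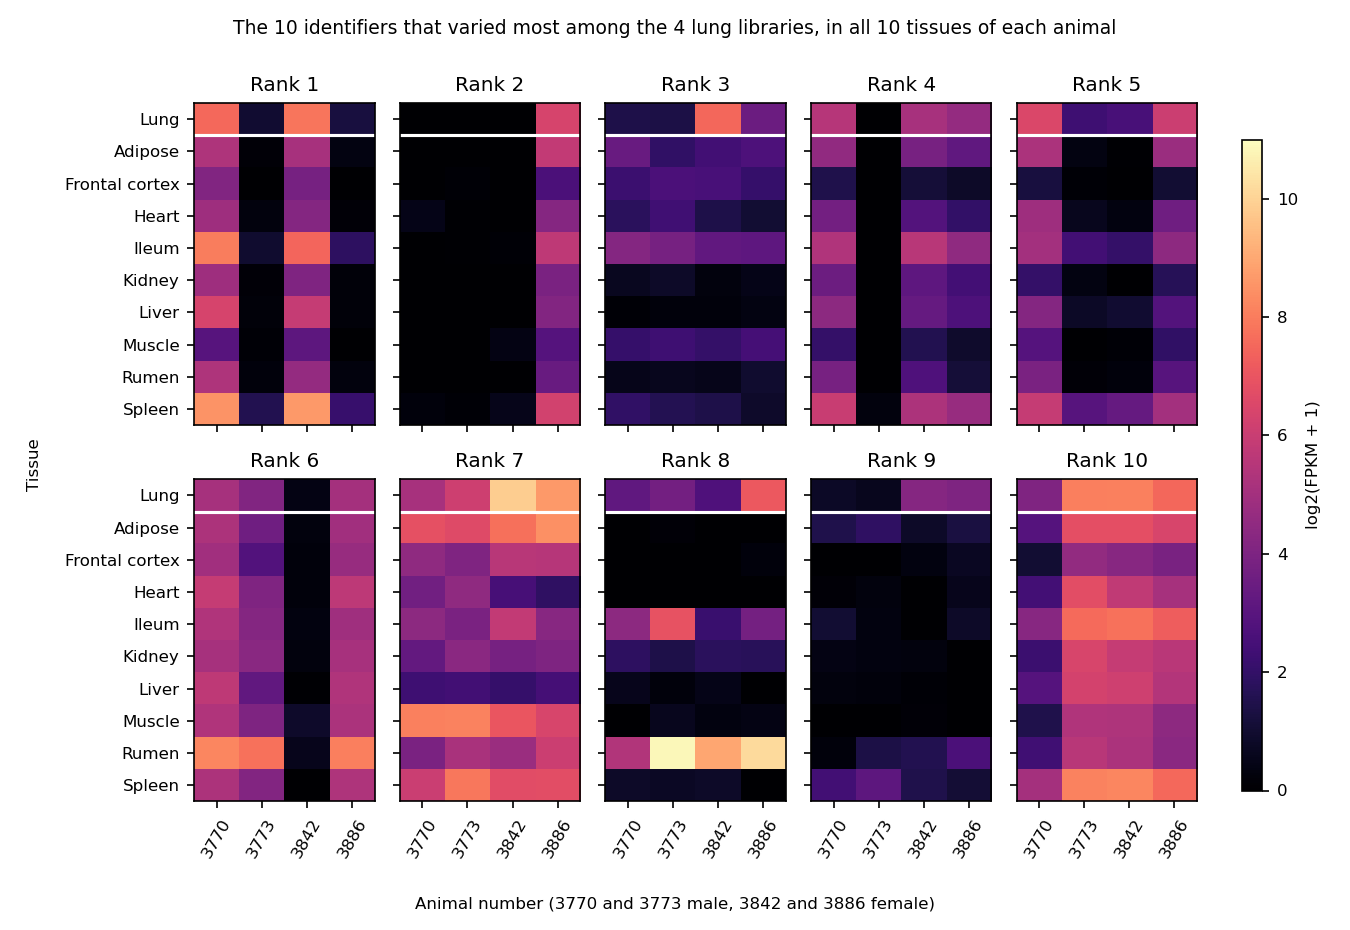
Levels of the 10 identifiers that varied most among the lungs (1 panel each, by rank), as log2(FPKM + 1) from black (0) to pale yellow, with lung above the white line, the 9 other tissues below it and the 4 animals as columns. The same animals are apart in all tissues at ranks 1, 2, 4, 5, 6 and 10, and the contrast is limited to the lung row at rank 3, where LUNG3842 has 179 FPKM.

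Male and female lungs were compared with 2 animals of each sex, using 1 mean per tissue and sex over the 40 libraries of the 10 shared tissues. Of 16503 identifiers tested, 215 were higher in male lungs (1.3%) and 114 in female lungs (0.691%) at an adjusted p under 0.05. The median size of the difference was 1.02 on the log2 scale, and 172 of the 329 reached 2-fold. This fit takes the libraries of 1 animal as independent. With the animal as a block and the correlation within an animal estimated by limma (0.0384), 215 and 113 were called. These counts depended on single libraries. They were 45 and 49 without LUNG3842, 50 and 43 without LUNG3770, 170 and 83 without LUNG3773, and 1341 and 507 without LUNG3886. With 1 library left on a side, that library was assumed to vary like the other groups. With 2 animals of each sex, sex and differences between single animals cannot be told apart for a given identifier. Rescaled to 1 sum, 76.0% of the calls were higher in males, against 65.3% as fitted and 55.8% after quantile normalization. Of the 946 identifiers called higher in lung, 22 (2.33%) were higher in male and 18 (1.90%) in female lungs, against 1.3% and 0.691% of all identifiers, and no test was made of this.

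The identifier with the largest male excess had 25.8 and 30.3 FPKM in male lungs LUNG3770 and LUNG3773, against 4.66 and 2.10 FPKM in female lungs LUNG3842 and LUNG3886. The difference was 2.79 ± 0.39 (SE) on the log2 scale (limma, Benjamini-Hochberg adjusted p = 0.00024). It exceeded the mean sex difference of the other 9 tissues by 2.35 (limma, Benjamini-Hochberg adjusted p = 0.00496). The second had 768 and 468 FPKM in the male lungs, against 114 and 145 FPKM in the female lungs. The difference was 2.22 ± 0.31 (SE) on the log2 scale (limma, Benjamini-Hochberg adjusted p = 0.000223). Its males were also apart from its females, on the same side, in 8 of the 9 other tissues.

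The largest female excesses were the variable identifiers described above. The one ranked 3 among these differed by -4.07 ± 0.65 (SE) on the log2 scale, male minus female (limma, Benjamini-Hochberg adjusted p = 0.00127), although the 2 female lungs themselves differed widely, with 179 and 10.3 FPKM. The one ranked 7 differed by -3.62 ± 0.57 (SE) and the one ranked 9 by -3.43 ± 0.34 (SE). The difference in lung departed from the mean of the other 9 tissues by -4.35, -3.53 and -3.53 for these 3 (limma, Benjamini-Hochberg adjusted p = 0.00164, 0.00355 and 6.56e-06). Across all identifiers, the sex difference in lung departed from that of the other 9 tissues for 112 (0.679%), or 129 with the animal as a block. Of the 112, 93 were among the 329, but both lists use the same lung difference and so overlap by construction. The mean over all 10 tissues had the same sign as lung for 302 of the 329, but lung is one of those tissues.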

How the data were processed

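Per the labels' protocols, Trizol RNA was DNase-treated and column-purified, then made into TruSeq libraries that were read as pairs of 150 bases on a HiSeq instrument. Trimmomatic 0.39, STAR, Cufflinks and the assembly UMD3.1 are named in the submitters' processing notes, and their settings, order and annotation are not given in the sources used here. A single table of FPKM was deposited by the authors for 24616 Ensembl identifiers in 51 columns. A sample was matched by name to 47 of these, and the remaining 4 stayed out. The muscle column of male A differs by a letter from the sample's title. The series text gives 4 individuals and 14 tissues, the labels 5 and 15, and the labels were used.

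No identifier matched a symbol, so the marker and pathway lists, the check of the tissue label and the printing of sequences could not be applied. Identifiers were ranked by a rule: the 15 most abundant in lung, the 25 largest differences among called identifiers with no overlap, the 15 largest decreases, the 10 most variable with a lung mean of at least 5 FPKM, and the 10 largest sex differences each way. The members and lists were chosen with earlier results of these data known.

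Values were fitted as log2(FPKM + 1) with limma 3.58.1 in R 4.3.3 (trend, Benjamini-Hochberg adjustment at 0.05, two-sided), for identifiers that reached 1 FPKM in 2 or more libraries. All 47 libraries and 15 labels shared 1 spread. The animal is the replicate. The fit was tested on simulated data with libraries drawn independently, so that test does not cover correlation within an animal. Same-numbered libraries come from 1 animal, and deviations of lung from its mean correlated with those of the same animal's other 9 tissues at 0.398 to 0.412, so the animal was also fitted as a block. Alternatives were pseudocounts of 0.1 and 5, other filters, 2 scalings, other sets of labels, array weights, no trend and each lung left out.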

Additional observations from a re-analysis of the deposited data

Results flagged for a closer look

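A library that stood far from the other 3 lungs was found for 11 of 100 identifiers and library measures tested, each counted once. Chance gives about 1 in 20, but that rate does not hold for identifiers chosen for their spread or sex difference. Apart from these, 6 of 73 were found. They include the decreases ranked 15 and 25, where the other lungs were listed at 0 and any value stands apart. The rate does not hold there, so the 6 cannot be set against it. In 3 of the 11 the distant library was LUNG3842. LUNG3842 had 4247 FPKM for the identifier ranked 11 by abundance, against 2952 to 3107 FPKM in the other lungs. For the one ranked 14 it had 3745 FPKM, against 2490 to 2652 FPKM. For the variable identifier ranked 3, which is also the first among those higher in females, it had 179 FPKM, against 1.60 to 10.3 FPKM.

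LUNG3886 stood apart for some of the decreases, variable identifiers and female excesses. It had 0.894 FPKM for the one ranked 14 among decreases, against 0 to 0.106 FPKM in the other lungs. For those ranked 15 and 25 it had 5.87 and 2.51 FPKM, while the other lungs were listed at 0. It had 82.7 FPKM for the variable identifier ranked 2 (0 in the others). For the one ranked 8 it had 136 FPKM (5.54 to 12.04 FPKM in the others). The sixth largest female excess had 75.0 FPKM there (5.19 to 15.9 FPKM in the others), and so leaned on 1 animal.

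LUNG3773 had 21.2 FPKM for the identifier ranked 3 among decreases, against 4.32 to 6.15 FPKM in the other lungs. It also had 30.3 FPKM for the third largest male excess, against 1.30 to 4.40 FPKM, so that this male excess rested on 1 animal.

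The difference between male and female lungs departed from that of the other 9 tissues for 112 identifiers in limma at an adjusted p under 0.05. Among those described, the departure was 2.35 on the log2 scale for the largest male excess. It was -4.35, -3.53 and -3.53 for the 3 largest female excesses (limma, Benjamini-Hochberg adjusted p = 0.00164, 0.00355 and 6.56e-06).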

How the results depend on the processing

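Of the 4-fold calls against the average of the labels, pseudocounts of 0.1 and 5 gave 1794 and 390 higher and 154 and 12 lower. Quantile normalization gave 628 higher and 66 lower, and its calls against the lactating mammary gland and liver numbered 4559 and 4883. The 628 shared 619 with the original 946. The animal as a replicate block gave 47 lower, and the 10 tissues of all 4 animals gave 120. The block, which left out the lymphocyte library, moved no other count of calls past 1.5 times. With an estimated correlation within an animal, the sex comparison gave 215 and 113, with 129 departures from the other tissues. Lung-enriched identifiers numbered 55 with 1 FPKM added and 171 with the lower minimum. The median SD among lungs was 0.139 with a pseudocount of 5, and leaving out each lung gave 0.148 to 0.229. The sex comparison gave 61 and 33 with a pseudocount of 0.1, with 29 departures from the other tissues. Leaving out each lung gave 45 to 1341 higher in males and 43 to 507 higher in females. The cause was not tested in any of these.

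Counts stayed within 1.5 times in the other 157 planned and 8 added recomputations. These included 938 higher and 42 lower without the 10 libraries with liver or rumen traces under 50 ppm. Leaving out each lung gave 923 to 1006 higher and 24 to 34 lower. Of the single identifiers, 932 planned and 120 added values kept direction and call, 76 and 6 lost the call, and none reversed. These tallies pool lists of unlike margin. The 25 leading identifiers were chosen for large differences, from 11.67 down to 5.33 on the log2 scale, and could hardly lose the call or reverse. The tallies therefore do not show how stable the decreases and the sex differences were on their own. The alternatives without the uterus of the dry cow or the mammary libraries, the block in the sex comparison and the sex difference against other tissues, were chosen after seeing the data. Depth is unknown, and low FPKM values carry an error that the 4 libraries only partly show.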
